A study of Mus musculus with 18 samples.

Results

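Around Adipoq, the gene of the adipocyte hormone adiponectin, lie Ahsg, Fetub, Hrg, Kng2, Kng1, Eif4a2 and Rfc4 on one side and St6gal1, Masp1 and Rtp4 on the other, at 18.8 to 362 kb from it. These 10 genes, of 55487 genes counted in each library, are described here. They were chosen by their position on chromosome 16 and with measured differences between genotypes in these same libraries in view, so the changes below describe the libraries they were picked from and are not independent support for a pattern. The question was whether neighbours of Adipoq are higher in mice that carry a Cre transgene under the Adipoq promoter. A transgene built on a large genomic clone can bring extra copies of neighbouring genes with it. Which neighbours, if any, the transgene of this study carries is not given in the sources used here, and the Cre sequence itself was not analysed here.

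RNA was sequenced from subcutaneous white adipose tissue (sWAT) of 12-week-old mice, 4 Ctrl and 4 Csn8AKO, and from brown adipose tissue (BAT) of 4-week-old mice, 5 Ctrl and 5 Csn8AKO. All 18 mice were male and had fasted for 4 h, with 1 mouse per library. Ctrl mice, labelled WT, were littermates with floxed Csn8 alleles (Csn8 f/f) and no Cre, and Csn8AKO mice were Csn8 f/f with AdipoqCre, which deletes Csn8 in adipocytes. Every Csn8AKO mouse therefore carried the transgene and the deletion and no Ctrl mouse carried either, so the effects of transgene and deletion cannot be told apart, nor can those of depot and age. In bulk tissue, a change in the number of cells of a type and a change in RNA per cell cannot be told apart either.

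The neighbourhood holds several genes whose main site of expression is the liver. Ahsg and Fetub (fetuins), Hrg (histidine-rich glycoprotein) and the kininogens Kng1 and Kng2 share cystatin domains and are secreted into plasma. Kininogens are cut by kallikreins to release bradykinin, a short vasodilator peptide. Masp1 encodes a serine protease that starts the lectin pathway of complement. Eif4a2 encodes an RNA helicase that unwinds mRNA for translation, Rfc4 a subunit of the clamp loader that places PCNA on DNA, St6gal1 an enzyme that adds sialic acid to glycoproteins, and Rtp4 an interferon-induced protein that helps receptors reach the cell surface. Adipoq stands among them and is expressed almost only in adipocytes.

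Because Kng1 and Kng2 are close copies, their sequences decide how far reads can be told apart. Shown 5′ to 3′ is the coding stretch around the bradykinin sequence of each gene in the GENCODE M21 transcripts, which lies in the last of 10 exons in both, with the 27 bases that encode bradykinin in capitals. They are at chr16:23078989-23079015 on the plus strand for Kng1 and at chr16:22988281-22988307 on the minus strand for Kng2, in GRCm38.
Kng1: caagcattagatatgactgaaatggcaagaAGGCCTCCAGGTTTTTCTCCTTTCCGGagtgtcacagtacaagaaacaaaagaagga
Kng2: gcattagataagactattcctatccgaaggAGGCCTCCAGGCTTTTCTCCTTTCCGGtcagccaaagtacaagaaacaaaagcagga
The capitals differed at 1 base and the 87 bases at 26. Over 1932 aligned coding bases the genes were 92.9% identical. Of all stretches of 50 bases in the Kng1 transcript, 18% also occurred in Kng2, and of stretches of 150 bases, the length of a read, 2.14% did. Reads that lie wholly within such a stretch cannot be given to one of the genes.

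The 300 bases around a transcription start (250 before, 50 after, GRCm38.p6, from RefSeq) are shown for Adipoq, whose promoter drives Cre, for Eif4a2, higher in both depots, and for Fetub, lower in BAT. Entries matched 7 of the 10 genes and Adipoq. Capitals mark CCAAT and TATAAA on either strand (ATTGG and TTTATA on the minus strand). The Adipoq window is chr16:23146286-23146585 (plus strand), that of Eif4a2 chr16:23107218-23107517 (plus strand) and that shown for Fetub chr16:22918132-22918431 (plus strand).
Adipoq: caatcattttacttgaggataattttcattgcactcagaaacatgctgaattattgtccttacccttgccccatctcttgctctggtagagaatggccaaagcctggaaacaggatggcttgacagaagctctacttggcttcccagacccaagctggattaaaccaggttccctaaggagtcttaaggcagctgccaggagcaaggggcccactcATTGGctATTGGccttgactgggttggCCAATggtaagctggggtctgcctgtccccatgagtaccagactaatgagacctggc
Eif4a2: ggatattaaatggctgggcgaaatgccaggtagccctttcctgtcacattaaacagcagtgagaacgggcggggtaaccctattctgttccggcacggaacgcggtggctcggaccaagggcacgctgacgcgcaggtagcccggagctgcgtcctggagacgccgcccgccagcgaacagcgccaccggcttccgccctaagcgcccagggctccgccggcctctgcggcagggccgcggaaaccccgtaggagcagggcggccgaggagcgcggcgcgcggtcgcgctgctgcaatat
Fetub: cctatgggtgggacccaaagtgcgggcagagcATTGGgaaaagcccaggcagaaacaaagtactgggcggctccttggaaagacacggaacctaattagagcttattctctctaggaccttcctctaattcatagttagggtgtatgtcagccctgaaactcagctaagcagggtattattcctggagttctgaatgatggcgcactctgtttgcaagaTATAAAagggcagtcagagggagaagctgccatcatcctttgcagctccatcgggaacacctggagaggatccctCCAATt
CCAAT occurred 3 times in the Adipoq window and 2 times in the Fetub window shown, which also held TATAAA. A further Fetub window, at chr16:22919972-22920271, held neither. The Eif4a2 window held none of these letters, nor AGGTCA, a core of the sites of many nuclear receptors. Among 32851 promoter windows of this length, 37.4% held CCAAT, 13.6% TATAAA and 16.3% AGGTCA on either strand.

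The libraries held 15835721 to 66719937 counted reads. Levels are given as CPM after TMM scaling, which are counts relative to the scaled library size, and changes as log2 fold changes of Csn8AKO against Ctrl with their standard error (SE) from edgeR's quasi-likelihood test with Benjamini-Hochberg adjustment over all genes tested in that depot. A gene was called higher or lower at an adjusted p under 0.05. Over all genes tested, 2.3% were called higher and 3.0% lower in sWAT, and 16.0% higher and 15.8% lower in BAT. Counts called in the lists below stand beside these shares. Intervals on counts and the limit of 3 counts that a count of 0 allows cover counting error only. In sWAT, ribosomal RNA took 1.80% to 47.8% of the counts and exceeded 10% in Ctrl replicates 2 and 3 and Csn8AKO replicates 3 and 4, while B cell genes were high in Ctrl replicate 1 and Csn8AKO replicate 2. In BAT it took 0.863% to 15.1% and exceeded 10% in Ctrl replicate 1 and Csn8AKO replicate 2.

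Of the targeted gene Cops8 (the symbol of Csn8, ENSMUSG00000034432, chromosome 1, 90602981 to 90613341), sWAT held 35.0 ± 0.911 CPM (SD, n = 4) in Ctrl and 32.2 ± 2.99 CPM (SD, n = 4) in Csn8AKO (log2 fold change -0.12, SE 0.11, adjusted p = 0.623). In BAT it went from 39.4 ± 3.22 to 32.1 ± 3.56 CPM (SD, n = 5 each) and was lower (log2 fold change -0.30, SE 0.09, adjusted p = 0.0211). The count spans the whole gene, so a transcript without the deleted exons is still counted. Adipoq itself (ENSMUSG00000022878, chromosome 16, 23146536 to 23158028) was not higher in Csn8AKO mice. In sWAT it had 1150 to 1560 CPM in Ctrl and 491 to 1100 CPM in Csn8AKO libraries, groups that did not overlap, and the difference of -0.68 on the log2 scale (SE 0.26) missed the threshold (adjusted p = 0.173). By limma voom and with all groups in 1 fit, Adipoq was called lower in sWAT. In BAT it had 620 to 664 CPM and 617 to 781 CPM (log2 fold change 0.09, SE 0.09, adjusted p = 0.474). The other adipocyte genes beside it, 13 in the list and all tested, summed to 31400 to 37600 CPM in Ctrl and 9220 to 21400 CPM in Csn8AKO sWAT, with 0 higher and 5 lower, and to 16300 to 19000 CPM and 14900 to 17500 CPM in BAT, with 2 higher and 2 lower. Over all genes tested, 2.3% were higher and 3.0% lower in sWAT, and 16.0% and 15.8% in BAT. The numbers of adipocyte genes called in BAT are near those shares. The 9 brown adipocyte genes summed to 4170 to 7540 CPM and 4410 to 9080 CPM in BAT.

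The neighbours did not move together. In sWAT, 7 of the 10 genes passed the filter on low counts, and 2 of them, Masp1 and Eif4a2, were higher and 0 lower, against 2.3% of all 18843 genes tested called higher and 3.0% called lower. The filter left out Kng1, Fetub and Hrg. Libraries of the genotypes did not overlap, with Csn8AKO higher, for 3 of the 7, the same pair and Rfc4, against 5.8% of all genes in that direction and 8.23% in the other. In BAT, 8 passed, of which Kng1, Eif4a2 and Masp1 were higher and Fetub and St6gal1 lower, against 16.0% higher and 15.8% lower among 22345 genes. Those 5 calls were kept without the pair of BAT libraries over 10% ribosomal RNA. All 5 had libraries that did not overlap, as 10.1% of all genes had in the higher and 10.9% in the lower direction. Ahsg and Hrg failed the filter there. Of the 10 genes, Eif4a2 and Masp1 were called higher in both depots. The median log2 fold change of the genes that passed was 0.54 in sWAT and 0.10 in BAT, beside 0.03 and 0.01 over all genes tested.

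**Figure D1:**
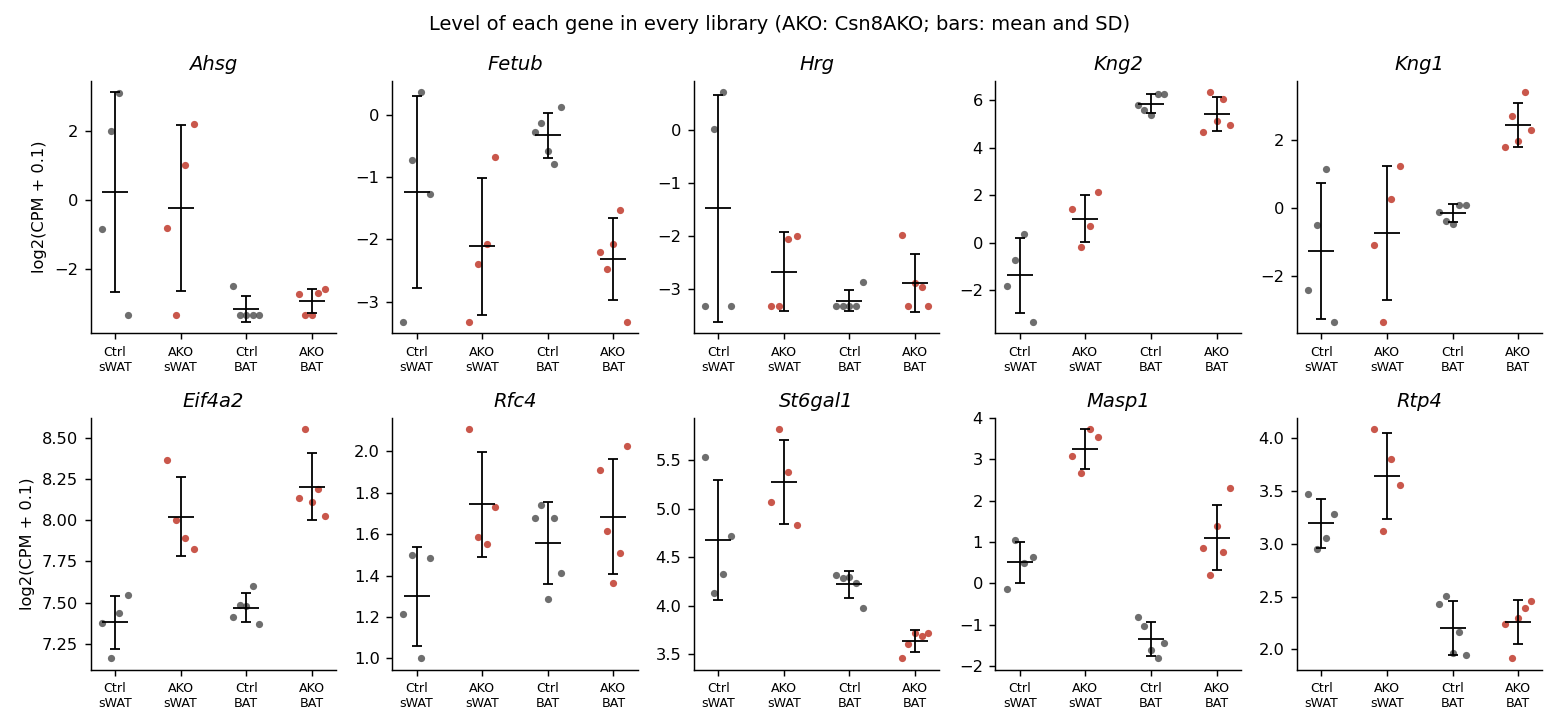
Level of each of the 10 genes in every library, as log2 of CPM plus 0.1 on an axis of its own for each gene, for Ctrl (grey) and Csn8AKO (red) in sWAT and BAT; bars are the mean and SD over the 4 or 5 libraries of a group. Masp1 and Eif4a2 are higher in Csn8AKO in both depots without overlap, Kng1 is higher in BAT, and Fetub and St6gal1 are lower in BAT.

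In Ctrl tissue these genes ranged over several orders of magnitude in CPM per kilobase of exonic gene length. That length covers the annotated exons of a gene rather than a single transcript, so the order of genes depends on it. Eif4a2 stood first in sWAT with 31.3 ± 3.48 CPM per kilobase (SD, n = 4), followed by St6gal1 with 5.57 ± 2.63 and Rtp4 with 4.28 ± 0.696, which overlapped. Rfc4 with 1.56 ± 0.263 and Ahsg with 1.45 ± 1.77 came next and did not differ beyond their spread. Hrg, Fetub, Kng1, Kng2 and Masp1 lay between 0.141 and 0.307 CPM per kilobase, within each other's spread. In Ctrl BAT, Eif4a2 had 33.2 ± 2.08 (SD, n = 5) and Kng2 21.8 ± 5.96 CPM per kilobase, far above St6gal1 with 3.80 ± 0.345, Rtp4 with 2.14 ± 0.392 and Rfc4 with 1.87 ± 0.256, of which the last pair overlapped. Fetub had 0.364 ± 0.103 and Kng1 0.251 ± 0.0499 CPM per kilobase, again overlapping, and Masp1 had 0.0312 ± 0.0119. Ahsg and Hrg were close to 0 in BAT.

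Kng1 (ENSMUSG00000022875, chromosome 16, 23057865 to 23082078, 64.5 kb from Adipoq) gave the smallest adjusted p of the 10 genes. In BAT of Ctrl mice it had 32, 40, 39, 53 and 54 counts, or 0.827, 0.678, 0.629, 0.978 and 0.974 CPM. In BAT of Csn8AKO mice it had 198, 162, 112, 759 and 145 counts, or 3.34, 6.39, 3.85, 10.4 and 4.85 CPM. Every Csn8AKO library was thus above every Ctrl library, and the mean went from 0.817 ± 0.162 to 5.76 ± 2.83 CPM (SD, n = 5 each), a fold of 7.08 (log2 fold change 2.82, SE 0.30, edgeR adjusted p = 1.7e-05). In sWAT it was near the limit of detection, with 2, 12, 36 and 0 counts in Ctrl and 8, 0, 16 and 30 counts in Csn8AKO libraries. It failed the filter there, and a change of Kng1 in sWAT was not detectable at this depth.

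Kng2 (ENSMUSG00000060459, chromosome 16, 22985854 to 23029482, minus strand, 117 kb from Adipoq), the second kininogen gene, was abundant in BAT and nearly absent from sWAT. BAT of Ctrl mice held 55.5, 47.5, 41.7, 77.6 and 75.6 CPM and BAT of Csn8AKO mice 25.0, 80.0, 34.3, 65.4 and 30.6 CPM. The genotypes overlapped, with 59.6 ± 16.3 and 47.1 ± 24.2 CPM (SD, n = 5 each; log2 fold change -0.34, SE 0.35, adjusted p = 0.513). In sWAT, counts were 4, 10, 20 and 0 in Ctrl and 56, 17, 22 and 58 in Csn8AKO. All 4 Csn8AKO libraries exceeded the Ctrl mean, but Ctrl replicate 3 exceeded Csn8AKO replicate 2 in CPM, and the log2 fold change of 2.31 (SE 0.87) missed the threshold (adjusted p = 0.173). By DESeq2 it passed (adjusted p = 0.0474). Kng2 shares its strand and part of its position with the pseudogene Gm6493, whose log2 fold changes were 0.18 (adjusted p = 0.688) in sWAT and 0.12 (adjusted p = 0.671) in BAT.

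The count of Kng1 was also set against that of Kng2 in the same library. It was 1.49%, 1.43%, 1.51%, 1.26% and 1.29% of that of Kng2 in the 5 Ctrl BAT libraries and 13.3%, 7.98%, 11.2%, 15.9% and 15.8% in the Csn8AKO BAT libraries. The Ctrl values lay close together although the Kng2 counts behind them ran from 2148 to 4204, while the Csn8AKO values were more spread. Within each genotype, the pair of replicates with the highest CPM of Kng1 was also the pair with the highest CPM of Kng2, replicates 4 and 5 in Ctrl and 2 and 4 in Csn8AKO. Only uniquely aligned, unambiguous reads were counted, so a read pair lying wholly in a stretch shared by both genes was counted for neither. How many of the Kng1 counts were read pairs lying partly in such stretches was not tested. In sWAT the ratio rested on at most 58 counts of either gene.

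**Figure D2:**
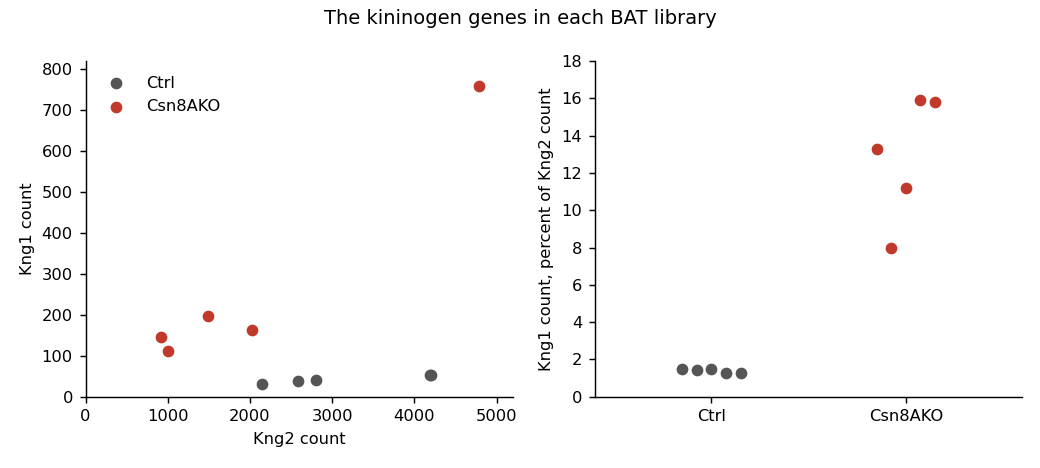
Kng1 count against Kng2 count in the 10 BAT libraries (left) and Kng1 count as a percent of Kng2 count (right), with Ctrl in grey and Csn8AKO in red and 1 point per library. The 5 Ctrl libraries lie between 1.26% and 1.51% and the 5 Csn8AKO libraries between 7.98% and 15.9%.

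Fetub (ENSMUSG00000022871, chromosome 16, 22918334 to 22939778, 207 kb from Adipoq), the gene of fetuin-B, an inhibitor of the protease that hardens the egg coat, moved the other way. In BAT it had 28, 48, 35, 26 and 55 counts in Ctrl libraries, or 0.480 to 0.992 CPM, and 7, 2, 4, 18 and 0 counts in Csn8AKO libraries, at most 0.246 CPM. The groups did not overlap and the mean fell from 0.715 ± 0.203 to 0.116 ± 0.0898 CPM (SD, n = 5 each; log2 fold change -2.42, SE 0.46, edgeR adjusted p = 0.00112). In sWAT it had 0, 10, 20 and 6 counts in Ctrl and 0, 2, 2 and 7 in Csn8AKO libraries and failed the filter.

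Ahsg (ENSMUSG00000022868, chromosome 16, 22891277 to 22899449, 247 kb from Adipoq), the gene of fetuin-A, had 10, 76, 142 and 0 counts in Ctrl sWAT and 10, 0, 28 and 60 in Csn8AKO sWAT. Hrg (ENSMUSG00000022877, chromosome 16, 22951072 to 22961656, 185 kb from Adipoq), whose protein binds heparin and plasminogen, had 0, 18, 26 and 0 counts in Ctrl and 0, 0, 2 and 2 in Csn8AKO sWAT. High libraries were the same in both genes, replicates 2 and 3 of Ctrl and 3 and 4 of Csn8AKO, and both genotypes overlapped. For Ahsg the log2 fold change was -0.92 with an SE of 1.56 (adjusted p = 0.803). In BAT, Ahsg had 3, 0, 0, 0 and 0 counts in Ctrl and 3, 0, 0, 4 and 2 in Csn8AKO libraries, and Hrg had 0, 0, 0, 0 and 2 and then 9, 0, 1, 2 and 0. Neither was detected in BAT beyond a few reads.

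Transcripts of most hepatocyte-defining genes moved with these genes across the sWAT libraries. The 4 libraries high in Ahsg were also those with over 10% ribosomal RNA, and in 7 of the 10 hepatocyte-defining genes they held more counts than every other library of their genotype. Cyp2e1, Arg1 and Serpina1a were not ordered in this way. Cps1, the first enzyme of the urea cycle, had 0, 62, 152 and 0 counts in Ctrl and 2, 0, 46 and 49 in Csn8AKO sWAT, and Ttr, a plasma carrier of thyroid hormone, 4, 62, 112 and 0 and then 4, 0, 22 and 43. All 10 hepatocyte-defining genes were present in some sWAT library, and their summed level ran from 967 to 2540 CPM in Ctrl and from 111 to 343 CPM in Csn8AKO, most of it from Cyp2e1. Their part in the sWAT levels of Ahsg, Hrg, Fetub and Kng1 was not tested. In BAT the summed level was 20.1 to 62.8 CPM in Ctrl and 6.01 to 29.8 CPM in Csn8AKO, most of it again from Cyp2e1. There Cps1 had at most 2 counts in any library, and Ttr had 6 in Ctrl replicate 1 and 0 in the other 9. Of the 3 hepatocyte-defining genes tested in BAT, Cyp2e1 was called in neither direction, with 895 to 3338 counts in Ctrl and 151 to 618 in Csn8AKO libraries. Beside a share of 16.0% called higher over all genes tested in BAT, the other 2 were higher in Csn8AKO. These were the protease inhibitor Serpina1a, with 1, 15, 8, 4 and 4 counts in Ctrl and 11, 90, 14, 32 and 19 in Csn8AKO libraries (log2 fold change 3.08, adjusted p = 0.0162), and Arg1, the last enzyme of the urea cycle, also made by macrophages (0.86, adjusted p = 0.00759). Their part in the BAT level of Kng1 was not tested.

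Other genes of the plasma and kinin systems were described from lists of known members. Beside them stand 16.0% of all genes tested called higher and 15.8% called lower in BAT, and 2.3% and 3.0% in sWAT. Of 26 genes of liver plasma proteins, 11 were tested in BAT, of which 6 were higher and 1 lower with a median log2 fold change of 0.92, and Fgb, Fgg, Gc and Mup20 were at 0 in all BAT libraries. Itih4, an inter-alpha-trypsin inhibitor heavy chain, went from 4.91 ± 0.672 to 54.7 ± 11.4 CPM (SD, n = 5 each; log2 fold change 3.48, adjusted p = 6.9e-09) and Trf, the iron carrier transferrin, was higher by 2.45 on the log2 scale (adjusted p = 0.000328). In sWAT, 24 were tested and 0 were higher and 1, the retinol carrier Rbp4, lower (log2 fold change -1.23, adjusted p = 0.035). Of 15 kallikrein and kinin genes, 10 were tested in BAT with 6 higher and 2 lower (median 0.59). Among those higher were Serping1, the C1 inhibitor (log2 fold change 1.25, adjusted p = 2.91e-06), and the kinin-degrading enzyme Ace (0.93, adjusted p = 5.49e-06). The summed level of the 15 genes in BAT went the other way without overlap, with 315 to 390 CPM in Ctrl and 263 to 306 CPM in Csn8AKO. In sWAT, 9 were tested (median 0.82), with Prcp, a prolylcarboxypeptidase, higher (0.89, adjusted p = 0.0138) and Cpn2, a subunit of the kininase carboxypeptidase N, lower (-2.73, adjusted p = 0.0218). Among 13 cystatin genes, 11 were in the files. The protease inhibitor Cstb was the 1 called of 3 tested in sWAT, higher by 0.81 (adjusted p = 0.0351), and of 5 tested in BAT, Cst7 was higher by 1.17 (adjusted p = 0.00126) and Cst3 lower (log2 fold change -0.39, adjusted p = 0.011).

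Masp1 (ENSMUSG00000022887, chromosome 16, 23449417 to 23520815, minus strand, 291 kb from Adipoq on the side away from the kininogens) rose by a similar fold in both depots. In sWAT it had 18, 39, 22 and 28 counts in Ctrl and 180, 138, 191 and 154 in Csn8AKO libraries, which is 0.815, 1.97, 1.30 and 1.45 CPM against 8.33, 6.25, 13.2 and 11.5 CPM. The lowest Csn8AKO library lay above the highest Ctrl library. The mean went from 1.39 ± 0.478 to 9.82 ± 3.11 CPM (SD, n = 4 each), a fold of 7.05 (log2 fold change 2.82, SE 0.33, edgeR adjusted p = 0.00254). Within the libraries under and over 10% ribosomal RNA, a split made after the values were seen, it was 2.71 and 2.90. In BAT it had 18, 23, 14, 10 and 15 counts in Ctrl and 102, 27, 74, 116 and 146 in Csn8AKO libraries. In CPM these were 0.185 to 0.465 and 1.06 to 4.88, again without overlap, with means of 0.307 ± 0.117 and 2.36 ± 1.51 (SD, n = 5 each; fold 7.69, log2 fold change 2.94, SE 0.41, edgeR adjusted p = 0.000136). The difference between the depots' changes was 0.10 on the log2 scale (SE 0.51, adjusted p = 0.958), which does not show that they were equal.

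Masp1 overlaps Gm49514, Gm45338 and Rtp4 on the opposite strand, and the strand setting of the counting is not given in the sources used here. Gm45338, named here after its values were seen, went from 0.229 ± 0.213 to 1.42 ± 0.364 CPM in sWAT (SD, n = 4 each; log2 fold change 2.62, SE 0.68, adjusted p = 0.0523). It failed the filter in BAT. By DESeq2, by limma voom and with all groups in 1 fit, Gm45338 was called in sWAT. Without the filter on low counts it was called in both depots. Shares called over all genes tested were 2.3% higher and 3.0% lower in sWAT, and 16.0% and 15.8% in BAT. Of 11 genes of the lectin pathway and its targets, 7 were tested in each depot. In BAT, 6 were higher and 0 lower (median log2 fold change 1.42), with C3, the central complement protein, at 1100 ± 170 and 3200 ± 667 CPM (SD, n = 5 each; log2 fold change 1.55, adjusted p = 1.06e-05) and C4b at 2.19 (adjusted p = 0.000148). In sWAT, 0 were called in either direction (median -0.36), and C3 differed by 0.84 on the log2 scale (adjusted p = 0.109). Macrophage genes were higher beside Masp1 in both depots, 8 of 13 in sWAT and 12 of 13 in BAT with 0 lower. Their summed level went from 1300 to 1810 CPM in Ctrl to 2150 to 3640 CPM in Csn8AKO sWAT and from 146 to 201 CPM to 463 to 677 CPM in BAT, with none of the 13 at 0. Their part in the change of Masp1 was not tested.

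Eif4a2 (ENSMUSG00000022884, chromosome 16, 23107444 to 23114136, 32.4 kb from Adipoq) was the most abundant of the 10 genes and rose in both depots by less than Masp1. In sWAT it had 166, 143, 173 and 187 CPM in Ctrl and 330.0, 256, 238 and 227 CPM in Csn8AKO libraries. No Csn8AKO library reached down to a Ctrl one, and the mean went from 167 ± 18.6 to 263 ± 46.3 CPM (SD, n = 4 each; fold 1.57, log2 fold change 0.65, SE 0.16, edgeR adjusted p = 0.0473). That call was close to the threshold and was kept in 1 of the 8 fits that left out a library, with adjusted p between 0.0357 and 0.148 and log2 fold changes between 0.52 and 0.71. Under and over 10% ribosomal RNA it was 0.76 and 0.56. In BAT it had 170.0, 179, 178, 194 and 165 CPM in Ctrl and 281, 376, 277, 292 and 261 CPM in Csn8AKO libraries, with means of 177 ± 11.1 and 298 ± 45.4 (SD, n = 5 each; fold 1.68, log2 fold change 0.75, SE 0.10, edgeR adjusted p = 9.77e-05). The changes differed between the depots by 0.08 on the log2 scale (SE 0.19, adjusted p = 0.890). Eif4a2 overlaps 6 genes on its own strand, among them the small nucleolar RNA gene Gm24616, and ends within Rfc4 on the opposite strand. Of 14 genes of the cap-binding complex and its regulators, 3 were higher and 3 lower in BAT (median log2 fold change 0.14) and 0 higher and 1 lower in sWAT (median 0.05). All were tested in both depots, and shares called over all genes in BAT were 16.0% higher and 15.8% lower. Eif4e3, a cap-binding protein, fell in both, by 0.94 on the log2 scale in sWAT (adjusted p = 0.0246) and by 1.00 in BAT (adjusted p = 8.07e-06).

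Rfc4 (ENSMUSG00000022881, chromosome 16, 23113943 to 23127737, minus strand, 18.8 kb from Adipoq) is the nearest of the 10 genes and was called in neither depot. In sWAT it had 2.22, 2.73, 1.90 and 2.7 CPM in Ctrl and 4.21, 2.90, 2.83 and 3.22 CPM in Csn8AKO libraries, which did not overlap, with a log2 fold change of 0.46 (SE 0.25, adjusted p = 0.336). In BAT it had 2.34 to 3.24 CPM in Ctrl and 2.47 to 3.98 CPM in Csn8AKO libraries (log2 fold change 0.14, SE 0.17, adjusted p = 0.562). Of 13 clamp loader genes, 0 of 12 tested were called in sWAT, and in BAT 0 of 13 were higher and 2 lower, Rfc1 (log2 fold change -0.30, adjusted p = 0.0207) and Rad17 (-0.29, adjusted p = 0.0291). Among all genes tested in BAT, 16.0% were higher and 15.8% lower, so the number lower is near that share.

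St6gal1 (ENSMUSG00000022885, chromosome 16, 23224740 to 23360350, 66.7 kb from Adipoq) fell in BAT. It had 19.8, 19.4, 19.6, 18.7 and 15.7 CPM in Ctrl and 10.9, 12.1, 13.1, 12.8 and 13.1 CPM in Csn8AKO libraries. The groups did not overlap, with means of 18.7 ± 1.70 and 12.4 ± 0.925 CPM (SD, n = 5 each; log2 fold change -0.59, SE 0.10, edgeR adjusted p = 0.000353). In sWAT it had 46.0, 17.4, 20.0 and 26.2 CPM in Ctrl and 33.4, 56.3, 41.6 and 28.3 CPM in Csn8AKO, which overlapped (log2 fold change 0.54, SE 0.32, adjusted p = 0.400). Its highest library in each sWAT group, Ctrl replicate 1 and Csn8AKO replicate 2, was the one high in B cell genes and in T cell genes, which summed to 346 and 477 CPM there and to 8.71 to 49.2 CPM in the other 6 sWAT libraries. The part of either cell type in the level of St6gal1 was not tested. The summed level of the 10 B cell genes was 433, 129, 72.6 and 91.7 CPM in Ctrl and 211, 1030.0, 182 and 239 CPM in Csn8AKO sWAT, with 0 called. Without both libraries, an alternative added after the values were seen, the log2 fold change of St6gal1 was 0.70 and passed the threshold (adjusted p = 0.0448). In BAT the B cell genes summed to 7.92 to 14.9 CPM in Ctrl and 11.6 to 26.1 CPM in Csn8AKO. Of 9 tested there, 1 was higher and 1 lower, beside 16.0% and 15.8% over all genes tested.

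**Figure D3:**
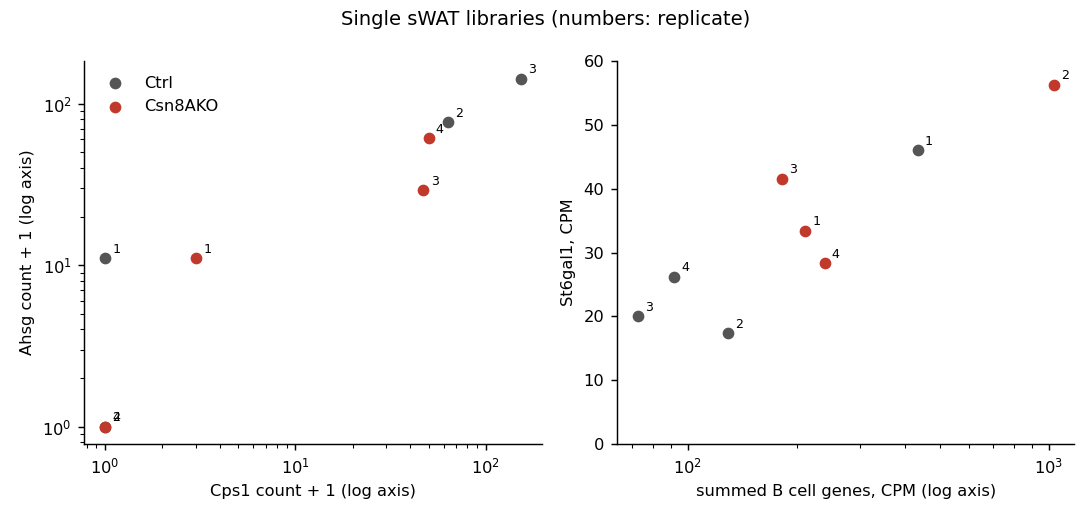
The 8 sWAT libraries, with counts plus 1 of Ahsg against those of the hepatocyte gene Cps1 on log axes (left) and CPM of St6gal1 against the summed CPM of the 10 B cell genes on a log axis (right); numbers are replicates, grey is Ctrl, red is Csn8AKO, and Ctrl 4 and Csn8AKO 2 lie on each other at 0 counts on the left. Ahsg is highest where Cps1 is, in Ctrl 2 and 3 and Csn8AKO 3 and 4, and St6gal1 is highest in Ctrl 1 and Csn8AKO 2, where the B cell genes sum to 433 and 1030.0 CPM.

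The change of St6gal1 in BAT minus that in sWAT was -1.15 on the log2 scale (SE 0.30), with an adjusted p of 0.0517 by edgeR, just short of the threshold. Over all genes, 2.36% were called in this comparison, and of the 9 of the 10 genes tested in it 0 were called. By DESeq2 and by limma voom St6gal1 alone was called. Kng2 differed by -2.68 (SE 0.88, adjusted p = 0.140) and Kng1 by 2.46 (SE 1.21, adjusted p = 0.353), the latter resting on few sWAT counts. Among 19 sialyltransferase genes, 14 were tested in each depot, with 0 called in sWAT (median log2 fold change 0.28) and 5 higher and 2 lower in BAT (median 0.22). St6gal1 was not counted in that list. The genes lower were St6galnac6 (-1.10 on the log2 scale, adjusted p = 8.9e-06) and St8sia6 (-1.25, adjusted p = 0.000373). Their number is near the share of 15.8% called lower over all genes tested in BAT, where 16.0% were called higher.

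Rtp4 (ENSMUSG00000033355, chromosome 16, 23520291 to 23614222, 362 kb from Adipoq) is the farthest of the 10 genes. It had 11.0, 7.65, 8.23 and 9.66 CPM in Ctrl and 16.9, 8.60, 13.9 and 11.7 CPM in Csn8AKO sWAT, which overlapped (log2 fold change 0.49, SE 0.22, adjusted p = 0.258). In BAT it had 3.75 to 5.57 CPM in Ctrl and 3.67 to 5.41 CPM in Csn8AKO (log2 fold change 0.06, SE 0.16, adjusted p = 0.818). Without both sWAT libraries high in B cell genes it passed the threshold in sWAT (log2 fold change 0.74, adjusted p = 0.0388). Of 30 interferon-stimulated genes, all tested, 1 was higher and 0 lower in sWAT (median log2 fold change 0.17), beside 2.3% and 3.0% over all genes, and 7 were higher and 3 lower in BAT (median 0.16), beside 16.0% and 15.8%. The 1 was Oasl1 (log2 fold change 0.93, adjusted p = 0.0362), of the oligoadenylate synthetase family, and in BAT the nucleic acid sensor Zbp1 was higher by 1.36 on the log2 scale (adjusted p = 0.000378). The other receptor transporter gene tested, Rtp3, was called in neither depot.

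**Figure D4:**
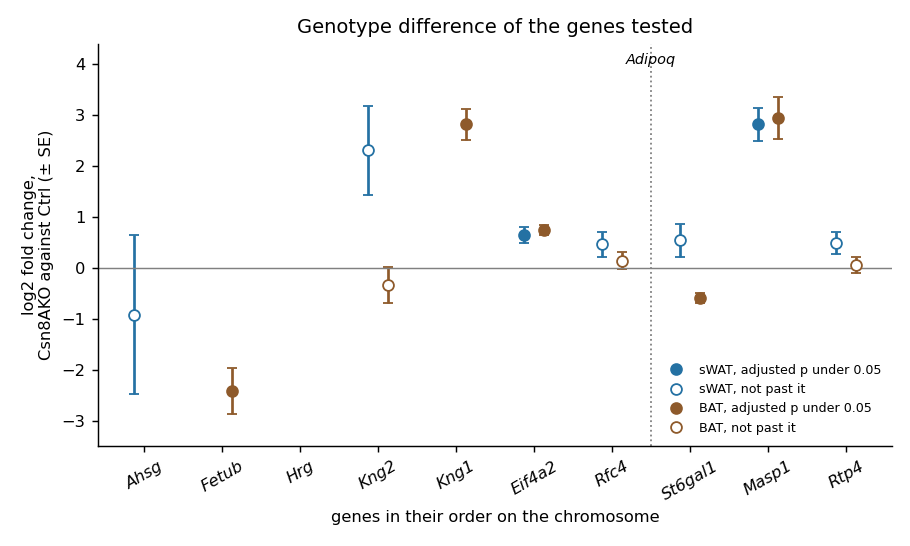
Log2 fold change of Csn8AKO against Ctrl with its standard error for the genes that passed the filter, in chromosomal order, in sWAT (blue) and BAT (brown); filled points have an adjusted p under 0.05 and the dotted line marks Adipoq. Calls lie on both sides of Adipoq, with Kng1, Eif4a2 and Masp1 above 0 and Fetub and St6gal1 below it in BAT.

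Whether the changes of the 10 genes depend on their distance from Adipoq was not tested. Rfc4, at 18.8 kb, was called in neither depot, and Masp1, at 291 kb, was called in both. Kng1 and Fetub, on the same side at 64.5 and 207 kb, moved in opposite directions in BAT, with Kng2, between them, overlapping between genotypes. All genes within 1 Mb of the Adipoq gene were then counted, 67 in all including Adipoq. In sWAT 23 were tested, of which 2 were higher and 0 lower, beside 2.3% and 3.0% over all genes. Both genes called were among the 10. In BAT 33 were tested, of which 12 were higher (36.4%) and 4 lower (12.1%), beside 16.0% and 15.8% over all genes. Between 1 and 3 Mb, 48 of 86 genes were tested in BAT, with 10 higher (20.8%) and 4 lower (8.33%), and 41 in sWAT, with 2 higher and 0 lower.

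Outside the 10 genes and Adipoq, 24 genes within 1 Mb were tested in BAT. Of these, 9 were higher (37.5%) and 2 lower (8.33%), beside 16.0% and 15.8% over all genes. The antisense transcript B630019A10Rik, which starts 17.3 kb beyond Adipoq, went from 0.848 ± 0.308 to 2.25 ± 0.309 CPM (SD, n = 5 each; log2 fold change 1.40, adjusted p = 0.00047). The pseudogenes Gm6630 at 21.5 kb, Gm15746 at 39.1 kb and Gm8134 at 52.1 kb had log2 fold changes of 1.15, 1.81 and 1.28, with group means of at most 0.724 CPM. The others higher were Dgkg, a diacylglycerol kinase (1.35), Etv5, a transcription factor (0.39), Dnajb11, a chaperone of the endoplasmic reticulum (0.28), Gm31583 (1.55) and AC169509.1 (1.02). Etv5, Dnajb11 and Gm31583 lay close to the threshold (edgeR adjusted p = 0.0485, 0.0367 and 0.0449). None of them was called without Ctrl replicate 2. Lower were Tbccd1, a centrosomal protein (-0.57), and Gm30251 (-0.95). B630019A10Rik, Gm6630 and Gm15746 lie between Adipoq and St6gal1, which itself was lower in BAT. On the other side of Adipoq, Eif4a2 at 32.4 kb was higher in BAT. Rfc4 at 18.8 kb and 6330408M09Rik at 17.6 kb, also on that side, were not called there.

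**Figure D5:**
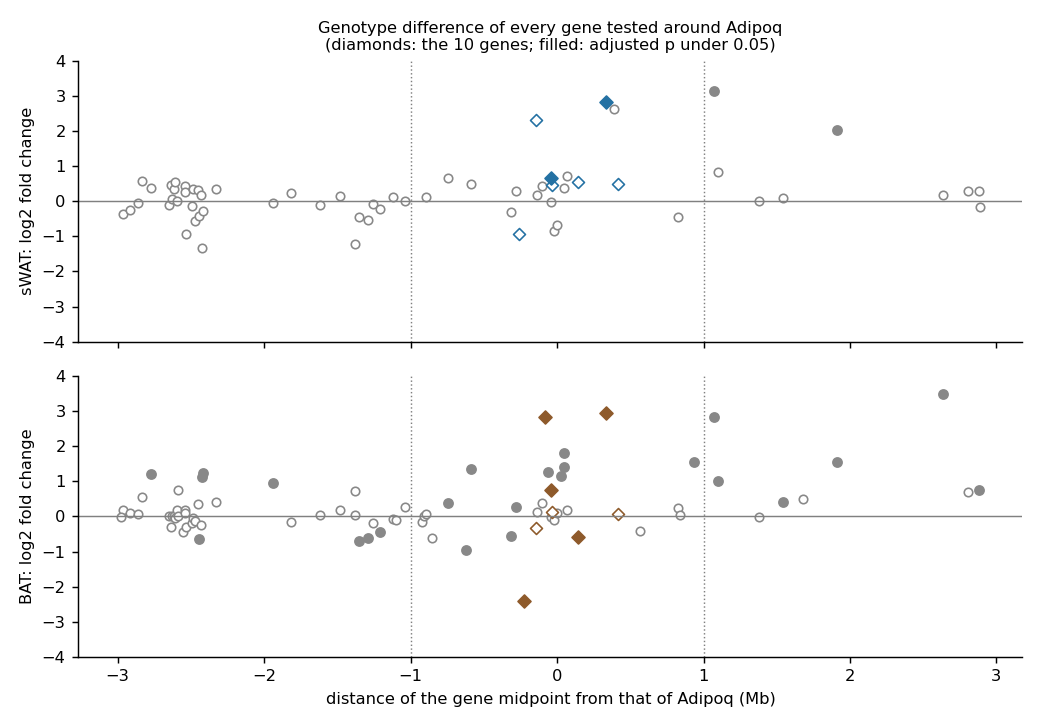
Log2 fold change of every gene tested within 3 Mb of Adipoq against the distance of its midpoint from that of Adipoq, in sWAT (top) and BAT (bottom); diamonds are the 10 genes, circles other genes, filled symbols have an adjusted p under 0.05, and dotted lines mark 1 Mb. In BAT 12 of 33 genes within 1 Mb are called higher and 4 lower, and in sWAT 2 of 23 are called higher.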

How the data were processed

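Ribosomal RNA was depleted, paired reads of 150 bases were sequenced, and the authors aligned them with STAR to Ensembl release 101 and assigned uniquely aligned, unambiguous reads to genes with featureCounts. Whether strand was used is not given in the sources used here. The count that the authors deposited per gene is not normalized, and 71.9% of values from 1 to 10 were even. The deposited CPM is the count relative to the library total, FPKM, as deposited, divides CPM by gene length in kilobases, and TPM, as deposited, scales length-corrected counts to one sum, all made by the authors. The last 3 were not used, except that CPM was checked against the counts. Coordinates are those of GRCm38, and gene names and overlaps came from GENCODE M21, which held 55227 of the 55487 genes.

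Genotypes were compared within each depot by edgeR 4.0.16 in R 4.3.3 (TMM factors, filterByExpr at its minimum of 10 counts in a library and 15 in total, robust fits of the quasi-likelihood model, Benjamini-Hochberg adjustment over all genes tested, threshold 0.05), and the difference between depots by the interaction over all 18 libraries. DESeq2 1.42.0 and limma voom (limma 3.58.1) were alternatives, as were other scaling, other filters, 1 fit of all groups, removal of ribosomal RNA genes, a replicate block and each library left out. The fits were tested on simulated data. The members, the gene lists and the tests were chosen with earlier results of these data known. Genes named are the 10, Adipoq, Cops8, genes called within 1 Mb, the 2 of smallest adjusted p per list and depot, hepatocyte and B cell genes as levels, and the 3 most alike in pattern.

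Samples sharing a replicate number did not deviate together in a common direction, with correlations between -0.481 and 0.377 in sWAT and between -0.183 and 0.239 in BAT. These correlations cannot exclude that the numbers mark pairs of mice. Libraries are separate mice.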

Additional observations from a re-analysis of the deposited data

Results flagged for a closer look

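Among the 40 groups of 4 or 5 libraries (10 genes in 4 groups), 5 held a library farther from the others than Dixon's 95% limit allows, where chance gives about 1 in 20. Eif4a2 in Csn8AKO BAT replicate 2 had 376 CPM, beside 261 to 292 CPM in the other 4 libraries. That library was also the Csn8AKO BAT library with over 10% ribosomal RNA. St6gal1 in Ctrl BAT replicate 5 had 15.7 CPM, beside 18.7 to 19.8 CPM in the others, and was still above every Csn8AKO library. The other 3 rested on a few reads. Hrg had 0.152 CPM in Csn8AKO BAT replicate 1 (9 counts), beside at most 0.0344 CPM, and 0.0361 CPM in Ctrl BAT replicate 5 (2 counts), beside 0. Ahsg had 0.0776 CPM in Ctrl BAT replicate 1 (3 counts), beside 0.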

How the results depend on the processing

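In BAT the same 5 genes were called under all alternatives except a filter of over 1 CPM, which left out Fetub and gave 4. In sWAT, Masp1 and Eif4a2 gave 2 calls, but the replicate block, leaving out the filter on low counts and library size as the only scaling each gave 1. With single libraries left out the number was 1 to 2, the call lost being that of Eif4a2 without any library other than Csn8AKO replicate 2. Chosen after the values were seen, the sWAT libraries under 10% ribosomal RNA gave 0 calls (0 of all genes, 2 against 2 mice) with log2 fold changes of 2.71 for Masp1 and 0.76 for Eif4a2, those over 10% gave 1, and leaving out both libraries high in B cell genes gave 4, with Rtp4 and St6gal1 added.

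Genes called within 1 Mb of Adipoq in sWAT, 2 in the report, were 5 by DESeq2, 5 by limma voom, 7 with all groups in 1 fit, 1 with the replicate block and 1 to 3 with single libraries left out. In BAT, 16 in the report, they were 9 with a filter of over 1 CPM, 10 with all groups in 1 fit and 9 to 15 with single libraries left out, lowest without Csn8AKO replicate 4 (9) and Ctrl replicate 2 (10). The interaction called 0 of the 10 genes, 1 by DESeq2, 1 by limma voom (St6gal1 in both) and 0 to 1 with single libraries left out, 1 without Ctrl sWAT replicate 1 or Csn8AKO sWAT replicate 4.

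Directions turned for uncalled values only. Ahsg in sWAT was at 1.05 by limma voom and at -2.07 to 0.22 with single libraries left out, and Rtp4 in BAT at -0.01 to 0.14. The interaction of Masp1 was at -0.16 by limma voom, -0.02 with the replicate block and -0.33 to 0.32 with single libraries left out, and that of Eif4a2 at -0.02 to 0.23. The cause was not tested. Library size alone moved the median log2 fold change of all genes in BAT by 0.134 and in the interaction by 0.217. The correlations by replicate number cannot exclude that the numbers mark pairs of mice. Among the neighbours of Adipoq described here, the replicate block changed no call in BAT. In sWAT it lost the call of Eif4a2 (edgeR adjusted p = 0.161 with the block). Of all genes within 1 Mb of Adipoq, it called 12 in BAT, beside 16 without it. Kng1, Fetub and Hrg in sWAT and Ahsg and Hrg in BAT had too few reads to pass the filter.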

Other observations

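The pattern of Masp1 over the 18 libraries, after the mean of each depot was subtracted, was most like that of Mcl1, a survival protein of the BCL2 family (Pearson's r 0.964), Sdc1, a cell surface proteoglycan (0.959), and Specc1 (0.950), among 15023 genes. These 3 were higher in both depots, Mcl1 by 0.63 in sWAT (edgeR adjusted p = 0.0138) and 0.55 in BAT (adjusted p = 0.000358) on the log2 scale, Sdc1 by 1.75 (adjusted p = 0.00053) and 1.70 (adjusted p = 0.00106), and Specc1 by 0.97 (adjusted p = 0.0122) and 0.95 (adjusted p = 0.000185). Kng1 was most like Sobp (0.915), Auts2 (0.913) and Ntmt1 (0.878), which were higher in BAT, by 1.63, 1.32 and 0.38 on the log2 scale, and called in neither direction in sWAT. All points share the 18 libraries and the genotype difference by which Masp1 and Kng1 stand out, so the correlations are a description only.

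Between 1 and 3 Mb from Adipoq, 10 of 48 genes tested in BAT were higher (20.8%) and 4 lower (8.33%). Over all genes tested in BAT, 16.0% were higher and 15.8% lower. In BAT, Trp63, a transcription factor of epithelia, was higher by 3.49 on the log2 scale (edgeR adjusted p = 0.000715). Its Csn8AKO libraries were widely spread, at 2.48 ± 2.17 CPM (SD), beside 0.228 ± 0.0806 CPM in Ctrl. Abcc5, an efflux transporter, was higher in BAT by 1.21 (adjusted p = 5.48e-08). The intronic transcript Gm31814 was higher by 2.84 in BAT (adjusted p = 1.91e-07) and by 3.13 in sWAT (adjusted p = 0.00497). These 3 were chosen after their values were seen.

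Of the remaining lists of cell type markers, 0 of 10 T cell genes were called in sWAT, and 4 of 9 were higher and 0 lower in BAT. Of 9 endothelial genes, 0 were called in sWAT, and 2 were higher and 0 lower in BAT. Of the brown adipocyte genes, 0 of 6 tested in sWAT were higher and 2 lower, and 1 of 9 was higher and 1 lower in BAT. Of the hepatocyte genes, 0 of 9 were higher and 1 lower in sWAT, and 2 of 3 were higher and 0 lower in BAT. The shares over all genes tested were 2.3% higher and 3.0% lower in sWAT, and 16.0% and 15.8% in BAT.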
